A study of Mus musculus with 3 samples.

Results

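MicroRNAs are short RNAs cut from hairpin precursors, and they lower the output of the messenger RNAs they pair with, mainly through their seed, bases 2 to 8 of the mature strand. Hairpins lie alone, in clusters that are transcribed together, or inside the introns of host genes whose promoters they share. In the heart and in skeletal muscle the miR-1, miR-133 and miR-208 families are known as muscle microRNAs, and miR-208a, miR-208b and miR-499 are carried by 3 myosin heavy chain genes. The chromatin described here came from cardiac progenitor cells (CPCs) at day 5 of differentiation of E14 Tg(Nkx2-5-EmGFP) mouse embryonic stem cells. This is a single reporter line, with no further allele named in the labels. The study describes a directed protocol with Activin A, BMP4, VEGF, bFGF and FGF10, and a hanging drop protocol. Its methods do not say which of them gave the ChIP-Seq cells. Isl1, a LIM-homeodomain transcription factor of cardiac progenitors, was pulled down in 2 ChIP-Seq replicates, and 1 input sample served as the control in peak calling. Both replicates were combined by the authors into 1 list of bound regions (peaks) on mouse build mm9, so no value below has an error between replicates, depth is unknown, and strength of binding cannot be compared. The list has no expression values, so the identity of the cells could not be checked against markers.

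The list names 1 gene for each peak, by the methods of the study the one with the closest transcription start in the annotation the authors used. Peaks were taken as belonging to a microRNA gene when that gene symbol was Mir followed by a digit, or Mirlet. After repeated lines were counted once, 358 of 14082 peaks met this rule, and they fell to 233 microRNA genes of 9313 gene names. In 4 of the 233 the symbol is that of a longer host transcript (Mir124a-1hg, Mir124-2hg, Mir9-3hg and Mir99ahg, with 8 peaks). One microRNA peak, over Mir212 on chr11:74986370-74987563, stood in the list as a repeated line. For 298 peaks whose hairpin was located by an exact sequence match, the deposited distance was compared with the distance from the middle of the peak to the 5′ end of the hairpin, and 298 were within 2 bp. Outside the 4 host transcripts, the start of a microRNA gene is therefore the start of its hairpin. The start of the primary transcript, which may lie many kilobases away, was not used for these genes. In the annotation used here, 94 of the 358 peaks (26.3%) had a protein-coding start more than 2 bp closer than the start assigned in the list. In 14 of them (3.91% of the 358) that start was within 1 kb and the assigned one beyond it. For the peaks of other genes these shares were 48.6% and 3.20%. For microRNA peaks the assigned gene is therefore not always the closest one by this annotation. For peaks of other genes the closer start can be another start of the assigned gene itself. Their shares thus do not count peaks with another gene closer, and the 2 sets cannot be compared by them.

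Among well known microRNA genes, the list held 7 of heart and muscle and those of let-7i, miR-17, miR-203, miR-200c, miR-212, miR-34b and miR-302b. Mature sequences of these genes except Mir1a-2, from RefSeq (GRCm38.p6), are given here because the seed decides which of them can share target messages. The seed is in capitals.
miR-206-3p: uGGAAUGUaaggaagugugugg
miR-208a-3p: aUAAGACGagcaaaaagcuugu
miR-208b-3p: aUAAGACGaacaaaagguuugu
miR-499-5p: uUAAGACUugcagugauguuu
miR-378c: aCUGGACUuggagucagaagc
miR-378d: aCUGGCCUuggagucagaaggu
let-7i-5p: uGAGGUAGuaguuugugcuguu
let-7a-5p: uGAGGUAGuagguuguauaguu
miR-9-5p: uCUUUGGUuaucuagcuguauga
miR-17-5p: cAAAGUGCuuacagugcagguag
miR-302b-3p: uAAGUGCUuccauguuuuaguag
miR-203-3p: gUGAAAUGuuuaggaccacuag
miR-200c-3p: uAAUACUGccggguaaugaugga
miR-212-3p: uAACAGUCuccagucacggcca
miR-34b-5p: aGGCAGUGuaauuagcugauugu

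Mature sequences were compared for 206 of the 233 genes, 321 sequences in all, and these held 306 distinct seeds. Genes of chromosome 18, such as Mir1a-2 and Mir145b, were left out, and further genes, such as Mir124a-3, had no mature sequence to compare. A seed shared with any of these genes is not counted, so the counts of shared seeds can be too low. Among the genes compared, 12 seeds occurred in more than 1 gene, and 21 genes had such a seed. Mir208a and Mir208b shared the seeds of both of their strands, and so did Mir9-2 with Mir9-3 and Mir181a-1 with Mir181c. Mirlet7i and Mirlet7a-1 shared the let-7 seed, and Mir29b-1 shared the miR-29 seed with Mir29c. The seed AGCAGCA, that of the miR-15 and miR-195 family, occurred in 5 genes, Mir15a, Mir195b, Mir6342, Mir6353 and Mir6419.

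The microRNA peaks lay far from their assigned starts, which are hairpin starts except in the host transcripts. The median distance was 33201 bp (95% interval 23326 to 46049 bp, from order statistics), with a range of 6 to 1298805 bp. For the 13724 peaks of all other genes it was 10957 bp (9676 to 11993 bp). Within 1 kb of the assigned start were 52 microRNA peaks, or 14.5% (95% Wilson interval 11.3 to 18.6%), where the share over all peaks of the list was 38.5% and that of the other genes was 39.1%. Between 1 and 10 kb were 62 peaks (17.3%), against 10.3% of the others. Beyond 10 kb were 244 peaks (68.2%, 63.2 to 72.8%), beside 51.1% of all peaks, and 127 of these (35.5% of the 358) were beyond 100 kb, against 22.7% of the others. All intervals cover counting error within this 1 list, and no test of these differences was made. They are not independent of how the authors named the peaks.

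**Figure D1:**
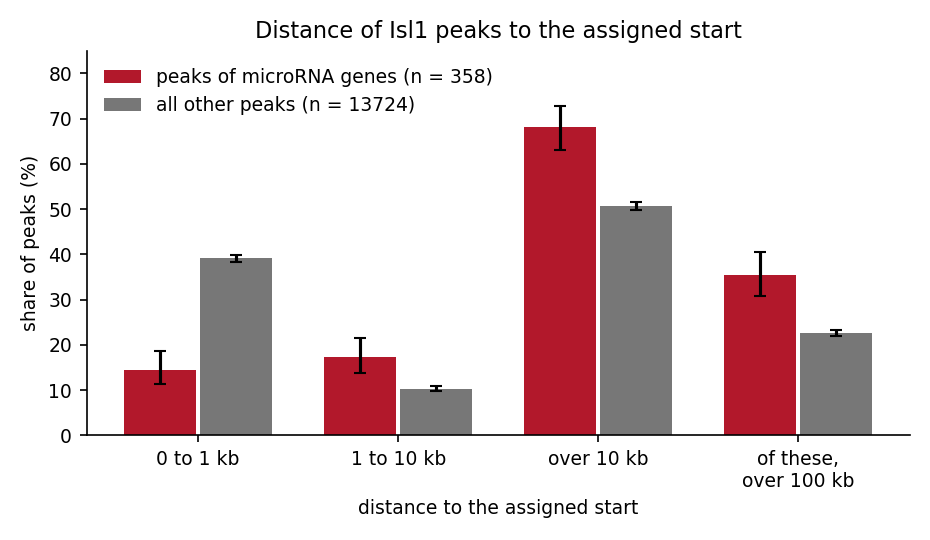
Share of peaks (percent, y axis) by distance to the assigned start (x axis) for the 358 peaks of microRNA genes and the 13724 peaks of other genes, with 95% Wilson intervals as error bars. The last class is a part of the class over 10 kb. The microRNA peaks have 14.5% within 1 kb and 68.2% beyond 10 kb.

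Counted by gene, 48 of the 233 microRNA genes had a peak within 1 kb of the hairpin and 103 had one within 10 kb. For 130 genes every peak was beyond 10 kb, and for 45 every peak was beyond 100 kb. Upstream of the assigned start lay 156 peaks, or 43.6% (38.5 to 48.8%), against 35.4% of the peaks of other genes. The middle of the peak was between genes for 184 microRNA peaks (51.4%), against 40.8% of the others, and in an intron for 111, where the others had 27.4%. It was in a coding exon for 43, where the others had 13.7%, in an untranslated region for 12 (3.35%, 1.93 to 5.77%), where they had 16.5%, and in a noncoding exon for 8. On chromosome X were 19 peaks (5.31%, 3.42 to 8.14%), against 3.61% of the others.

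Only 37 microRNA peaks, 10.3% (7.59 to 13.9%), had a protein-coding transcription start within 1 kb, beside 40.4% of all peaks. The median distance to such a start was 72998 bp (49140 to 90529 bp), and that of the peaks of other genes was 7753 bp. This contrast, too, is not independent of how the peaks were named.

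A larger share of the microRNA peaks stood on sequence that occurs many times in the genome. A peak was called multi-copy when the 31-base words of its central 200 bp had a median of at least 2 genome occurrences, and short reads from such sequence can be placed in several positions. By this measure 205 microRNA peaks were multi-copy, 57.3% (52.1 to 62.3%), beside 46.5% of all peaks and 46.2% of those of other genes. The share was higher in each farther class of distance in both sets. It was 2 of 52 peaks (3.85%, 1.06 to 13.0%) within 1 kb of the assigned start, where other genes had 2.61%. It was 13 of 62 (21.0%, 12.7 to 32.6%) between 1 and 10 kb, against 39.1%, and 190 of 244 (77.9%, 72.3 to 82.6%) beyond 10 kb, against 81.3%. Only within 1 kb was the share of microRNA peaks the higher of the pair, and there its interval holds the value of the others. In 103 microRNA genes every peak was multi-copy, in 115 every peak was single-copy, and 15 genes had both kinds. With single-copy peaks alone the median distance of the microRNA peaks was 4874 bp (2275 to 7897 bp), and that of the multi-copy ones was 127033 bp. For the peaks of other genes these medians were 265 bp (258 to 275 bp) and 79169 bp. What part misplaced reads have in the distant peaks was not tested.

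**Figure D2:**
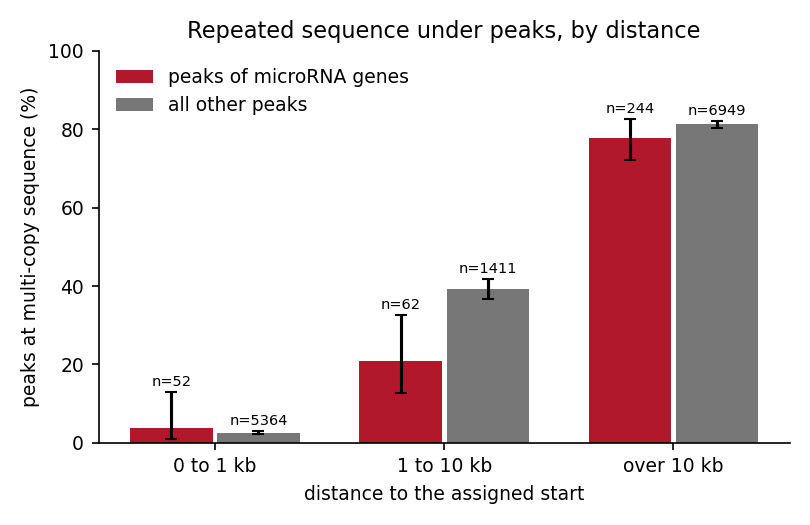
Share of peaks at multi-copy sequence (percent, y axis) in 3 classes of distance to the assigned start (x axis), for peaks of microRNA genes and all other peaks, with 95% Wilson intervals and the number of peaks above each bar. The share goes from 3.85% within 1 kb to 77.9% beyond 10 kb for microRNA genes and from 2.61% to 81.3% for the others.

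Width differed less than distance. The median width of microRNA peaks was 881.5 bp (818 to 913 bp), with a range of 309 to 3023 bp, and that of the other peaks was 948 bp (941 to 957 bp). Narrower than 500 bp were 37 microRNA peaks (10.3%), against 5.96% of the others. Within 1 kb of the start the medians were 1090 bp (891 to 1193 bp) and 1050 bp, and beyond 10 kb they were 858.5 and 883 bp. The widest microRNA peaks were 1 of Mir195b (3023 bp, multi-copy, 14109 bp from the hairpin), 1 of Mir6239 (2334 bp, multi-copy, in an intron of Gpc6) and that of Mir17 (2275 bp, single-copy). The narrowest were those of Mir692-2 (309 bp, in an intron of Grik3), Mir148a (334 bp) and Mir6335 (358 bp), all single-copy. The median GC content of the central 200 bp was 64.5% (64 to 65%) for microRNA peaks and 66.5% for the others, and for peaks within 1 kb it was 71.75% and 74%.

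**Figure D3:**
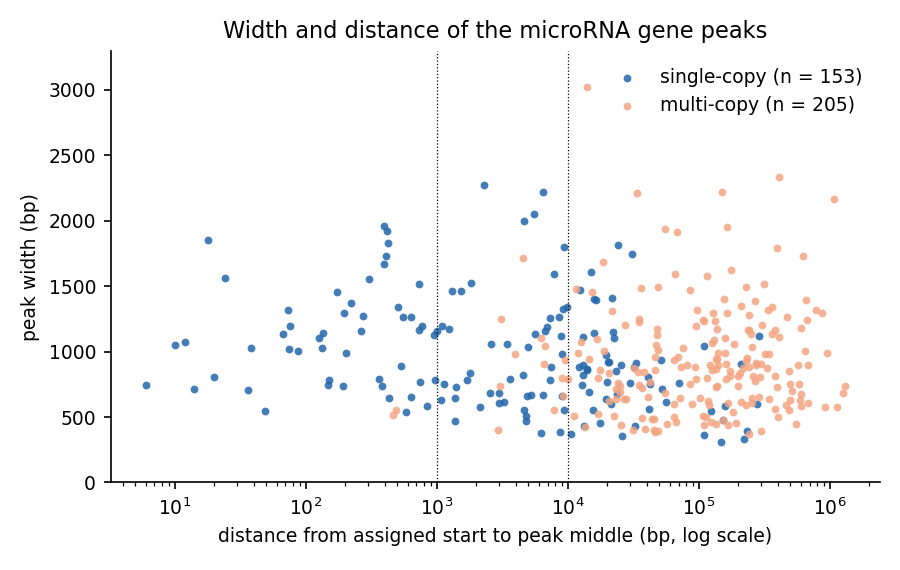
Peak width (bp, y axis) against the distance from the hairpin or host transcript start to the peak middle (bp, log scale, x axis) for the 358 microRNA peaks. Dotted lines mark 1 and 10 kb. Single-copy peaks (n = 153) have a median distance of 4874 bp and multi-copy peaks (n = 205) one of 127033 bp.

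A microRNA gene with any peak had 1.54 ± 1.02 peaks (mean ± SD over 233 genes), and any other gene name had 1.51 ± 1.08 (9080 names). Exactly 157 microRNA genes had 1 peak, 48 had 2, 18 had 3 and 10 had 4 or more. The share with at least 2 was 32.6%, against 28.9% of other names. Mir691 had most, with 8, all multi-copy, at 135885 to 788485 bp from the hairpin and with Robo2, an axon guidance receptor gene, as the closest protein-coding gene of each. Mir6350 had 7 peaks, 6 of them multi-copy, and Mir6336 had 6, all multi-copy and in introns of Lrp1b. These 2 genes also had the farthest peaks, at 1298805 bp for Mir6336 and at 1248011 and 1139769 bp upstream for Mir6350. Mir195b and Mir7232 had 5 peaks each, of which 1 of Mir195b was single-copy. Mir205, Mir3106, Mir3961 and Mir466f-4 had 4 each, all multi-copy. Mir582, inside the phosphodiesterase gene Pde4d, had 4 peaks too, 2 of them single-copy and 1 of these 94 bp from a Pde4d start. So nearly all peaks of the genes with most peaks were distant and multi-copy.

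**Figure D4:**
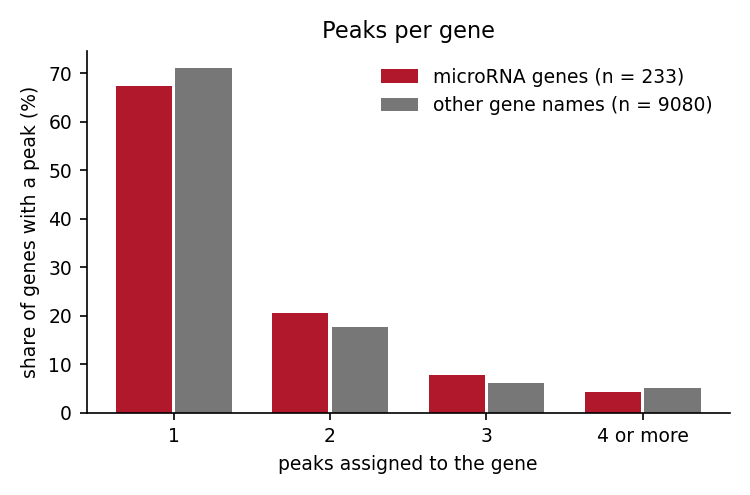
Share of genes (percent, y axis) with 1, 2, 3 or at least 4 assigned peaks (x axis) among the 233 microRNA genes and the 9080 other gene names that have a peak. The mean is 1.54 for microRNA genes and 1.51 for the others.

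Heart and muscle microRNAs came next, taken from a list of 16 genes that the RefSeq table holds. Of these, 7 had an assigned peak (43.8%, 23.1 to 66.8%), with 10 peaks, where 229 of all 1180 microRNA genes of the table, 19.4%, had one. With single-copy peaks alone 3 of the 16 remained (18.8%, 6.59 to 43.0%), Mir208a, Mir378c and Mir499, beside 127 of the 1180 (10.8%). With peaks of at least 500 bp there were 5 of 16 (31.25%, 14.2 to 55.6%), beside 17.5%. Both of these intervals hold the share of all microRNA genes. Counting any peak, whatever its assigned gene, within 10 kb of the hairpin, 8 of the 13 genes whose hairpin could be located had one, where the share was 21.2% of the 1066 hairpins located. For Mir206 and Mir133b this was the same multi-copy peak, and for Mir208b and Mir378d the closest peak was multi-copy too. This count was not repeated with single-copy peaks alone.

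The hairpins of the myosin genes each had a peak within 10 kb that lay in the coding part of the host gene. Mir208a sits in Myh6, which encodes the alpha myosin heavy chain of the heart. Its peak, chr14:55569129-55569596, was 467 bp wide, single-copy, 1383 bp upstream of the hairpin and in a coding exon of Myh6. It was 7382 bp from the closest annotated start of a Myh6 transcript. Mir208b sits in Myh7, the beta myosin heavy chain gene, next to it on the chromosome. Its peak, chr14:55591496-55591899, was 403 bp wide, in a coding exon of Myh7 and 2916 bp downstream of the hairpin start, and its sequence occurred in 2 copies. Of all peaks this one was closest to an annotated start of Myh6, at 5933 bp. Mir499 sits in Myh7b and had 2 peaks, both single-copy and downstream. They were chr2:155454753-155455420 (667 bp, at 6470 bp) and chr2:155457766-155459109 (1343 bp, at 9821 bp), both in coding exons of Myh7b and 290 and 750 bp from annotated starts of Myh7b transcripts. Each of these 4 peaks thus lay inside the host gene, and 2 of the 4 were within 1 kb of an annotated transcript start.

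The central 200 bp of the Mir208a peak is shown because it is the only peak of the heart and muscle list with a GATA-type string in that window, on the plus strand of mm9 with the string in capitals (AGATAG on the minus strand).
chr14:55569263-55569462: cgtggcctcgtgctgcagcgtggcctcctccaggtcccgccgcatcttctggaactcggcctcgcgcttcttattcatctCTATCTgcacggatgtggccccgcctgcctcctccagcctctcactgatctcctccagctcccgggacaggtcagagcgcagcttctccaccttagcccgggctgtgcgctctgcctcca

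The other peaks of the list were more distant or multi-copy. Mir206, a skeletal muscle microRNA, had the only listed heart and muscle peak within 1 kb, 487 bp upstream of the hairpin on chr1:20668329-20668880. This peak was 551 bp wide, had 45% GC, and its 31-base words had a median of 18598 genome occurrences. The hairpin of Mir133b is in the same cluster, and its closest peak was the same one, at 4246 bp. Mir378d had 3 multi-copy peaks, 27653 and 9019 bp downstream and 35181 bp upstream. Mir378c had 1 single-copy peak of 1798 bp, 9381 bp upstream, in an intron of Samd4. The peak of Mir1a-2 was multi-copy and 96379 bp upstream. Its hairpin was not located here, so whether a peak assigned to another gene was closer was not measured.

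The remaining 9 genes had no peak of their own. Mir1a-1 and Mir133a-2, a cluster on chromosome 2 that gives miR-1 and miR-133, had their closest peak at 3022 and 12353 bp, assigned to the noncoding gene B230312C02Rik and single-copy. Mir133a-1 and Mir1b had theirs at 56879 and 59340 bp, assigned to Mib1, a Notch pathway ubiquitin ligase gene whose start was 362 bp from a peak and which holds Mir1b on its strand. Mir378b had none closer than 182815 bp. Mir486 had none closer than 45454 bp to the hairpin, but the start of its host Ank1, which encodes an ankyrin, was 40 bp from a peak. Mir133b is described above, and the hairpins of Mir133c and Mir378a were not located here. Mir378, Mir378e and Mir486b of the list as written had no entry of that name in the table and were not counted.

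**Figure D5:**
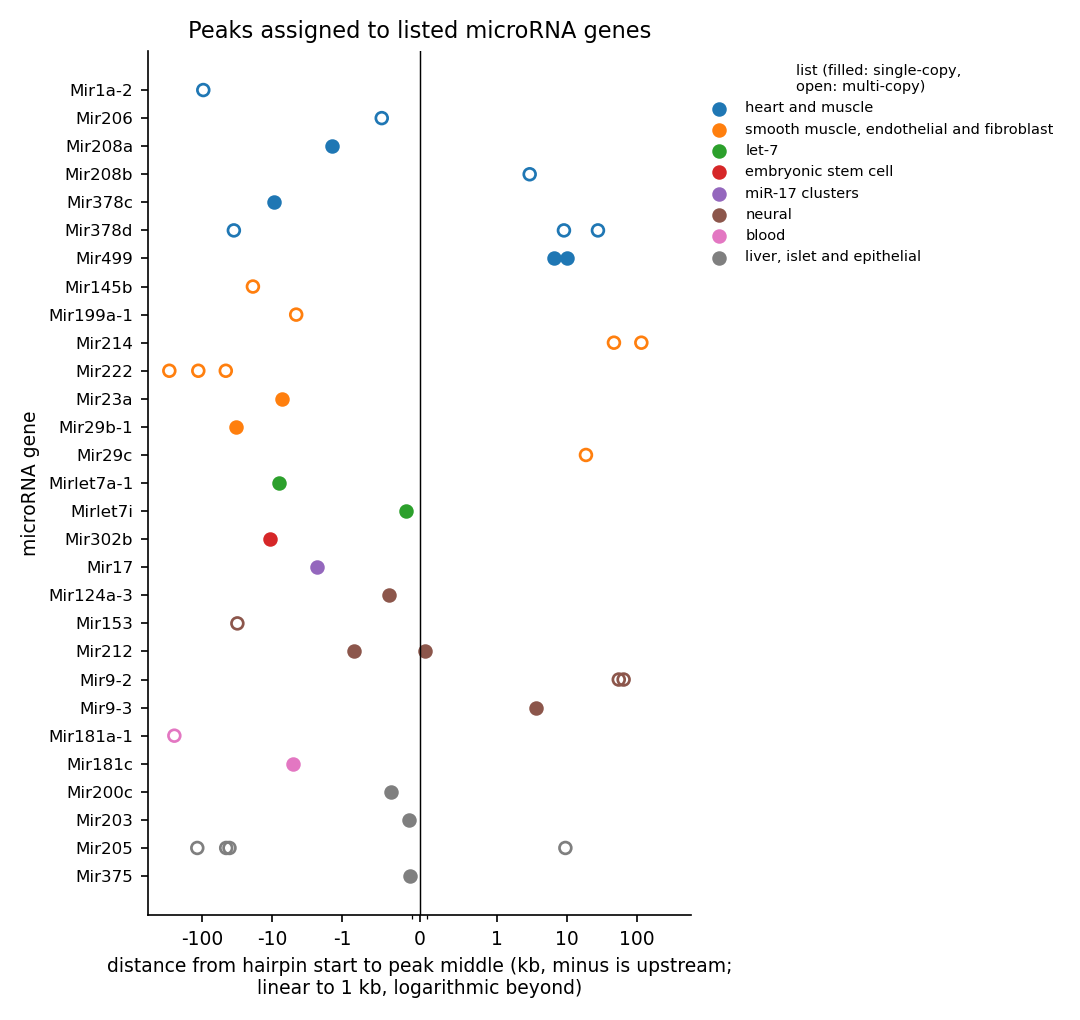
Signed distance from the hairpin start to the middle of each peak (kb, x axis, linear to 1 kb and logarithmic beyond, minus is upstream) for the 29 listed microRNA genes with an assigned peak (y axis), coloured by list. Filled points are single-copy and open points multi-copy. Of the 40 points, those of Mirlet7i, Mir375, Mir203, Mir200c, Mir124a-3, Mir212 and Mir206 lie within 1 kb.

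Among microRNAs of the vessel wall, endothelium and fibroblasts, 7 of 26 genes had a peak (26.9%, 13.7 to 46.1%), beside 19.4% of all microRNA genes. In this list and each one below, the 95% interval of the share held that 19.4%. With single-copy peaks alone 2 of the 26 remained (7.69%, 2.14 to 24.1%), beside 10.8%. The 7 genes had 10 peaks, 8 of which stood on multi-copy sequence. The peak of Mir23a, the first hairpin of the cluster with Mir27a and Mir24-2, was single-copy, 1259 bp wide and 7290 bp upstream. Mir29b-1 had a single-copy peak 32774 bp upstream. Multi-copy peaks were those of Mir199a-1 (4512 bp upstream, in an intron of Dnm2), Mir145b (18785 bp), Mir29c (18622 bp), Mir214 (46849 and 115531 bp, in introns of Dnm3) and Mir222, with 3 on chromosome X at 45916 to 295096 bp. Mir126a, the endothelial microRNA of Egfl7, had no peak of its own, but the start of Egfl7 was 139 bp from a peak.

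The let-7 family is known for rising as cells leave the pluripotent state. Of its 11 listed genes 2 had a peak, both single-copy. Mir7j, which gives let-7j, was not in the list and had 2 peaks. Both were multi-copy, at 128906 and 168276 bp. The peak of Mirlet7i, chr10:122422227-122423679, was 1452 bp wide, had 86.5% GC, covered the hairpin, and had no protein-coding start closer than 90529 bp. The 200 bp about its hairpin, which lie inside the peak, are shown on the minus strand of mm9, the strand of the hairpin, with both mature strands in capitals, because this is the let-7 hairpin under a peak.
chr10:122422639-122422838: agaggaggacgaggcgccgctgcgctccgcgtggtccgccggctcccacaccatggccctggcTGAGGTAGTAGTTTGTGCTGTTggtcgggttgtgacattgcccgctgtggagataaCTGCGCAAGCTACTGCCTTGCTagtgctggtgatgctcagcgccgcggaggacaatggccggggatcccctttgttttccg

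Mirlet7a-1, the first of a cluster with Mirlet7f-1 and Mirlet7d, had a peak of 1592 bp, 7897 bp upstream. By position 6 of the 11 listed let-7 hairpins had a peak of any assignment within 10 kb, where 21.2% of all 1066 hairpins located did. Mirlet7a-1 and Mirlet7f-1 had the same closest peak, and so did Mirlet7b and Mirlet7c-2. Of 14 embryonic stem cell microRNAs 1 had a peak, Mir302b, 10666 bp upstream, 371 bp wide and single-copy, ahead of the cluster with Mir302a, Mir302c, Mir302d and Mir367. No hairpin of this list had any peak within 10 kb. Of 15 genes of the miR-17 clusters, which favour proliferation, Mir17 had 1 peak. It was on chr14:115439481-115441756, had 86.5% GC and was single-copy, with its middle 2275 bp upstream of the first of 6 clustered hairpins. The 6 microRNA genes of the Hox clusters had no assigned peak, though 3 of the 6 hairpins had 1 within 10 kb that was assigned to a Hox gene, Mir10a at 1922 bp (Hoxb4), Mir196b at 4331 bp (Hoxa10) and Mir196a-1 at 7420 bp (Hoxb9).

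Neural microRNAs had a peak in 5 of 17 genes (29.4%, 13.3 to 53.1%), beside 19.4% of all microRNA genes. Mir212, which lies with Mir132, had 2 single-copy peaks, 843 bp upstream and 76 bp downstream of the hairpin start, and the second covered both hairpins, its middle 218 bp from the start of Mir132. Mir124a-3, a copy of the neuronal miR-124, had a single-copy peak of 1961 bp over its hairpin, 399 bp upstream by the deposited distance. The peak of Mir9-3 was single-copy and 3614 bp downstream. Those of Mir9-2, at 54925 and 64442 bp, and of Mir153, 31340 bp upstream, were multi-copy. The closest peak to the Mir9-2 hairpin was another, single-copy, at 7786 bp and assigned to C130071C03Rik. Mir9-1 had no assigned peak, but the single-copy peak of Mir3093 overlapped part of its hairpin, with its middle at 622 bp. In the blood list 2 of 12 genes had a peak, Mir181c at 4950 bp upstream (single-copy) and Mir181a-1 at 250150 bp upstream (multi-copy).

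MicroRNAs of liver, islet and epithelium had a peak in 4 of 12 genes (33.3%, 13.8 to 60.9%), beside 19.4% of all microRNA genes. Mir375, an islet microRNA, Mir203, a skin microRNA, and Mir200c, an epithelial one, each had a single-copy peak that overlapped the hairpin, with its middle 126, 135 and 362 bp upstream of the start. The peak of Mir200c began inside the hairpin and held only a part of it. These were chr1:74946868-74947974, chr12:113368385-113369527 and chr6:124668374-124669166. The peak of Mir200c was also the closest to Mir141, the other hairpin of that cluster, at 767 bp. Mir205 had 4 multi-copy peaks at 9456 to 117438 bp. The single-copy peaks near a hairpin thus came from several tissue classes of microRNAs. By position, 8 of the 15 neural hairpins located (53.3%, 30.1 to 75.2%) had a peak of any assignment within 10 kb. So had 5 of the 11 of liver, islet and epithelium (45.5%, 21.3 to 72.0%) and 8 of 13 (61.5%, 35.5 to 82.3%) of heart and muscle. Over all 1066 hairpins located the share was 21.2%.

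Hairpins close to a peak were looked at regardless of list. A peak overlapped the hairpin of its own microRNA gene for 34 genes, and held the whole hairpin for 32 of them. For Mir200c and Mir6991 the peak began inside the hairpin. The start of the hairpin was within 1 kb of a peak of any assignment in 67 of the 1066 located (6.29%) and within 500 bp in 47. The 52 assigned peaks within 1 kb fell into 2 sets. In 23 of them, or 44.2% (31.6 to 57.7%), a protein-coding start was also within 1 kb, where 97.2% of the near peaks of other genes had one. In the other 29, from 26 genes, none was. The median width was 1074 bp (804 to 1370 bp) in the first set and 1106 bp (771 to 1261 bp) in the second, and the median GC was 73.5% (72 to 76%) and 70% (65.5 to 72.5%).

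In the first set 16 of the 23 peaks belonged to a hairpin inside a protein-coding gene on its own strand. Within 100 bp of the peak middle were the starts of Alg10b (63 bp, Mir7648), Chd4 (44 bp, Mir7045), Cdk9 (86 bp, Mir3960), Neto2 (71 bp, Mir8109), Pde4d (58 bp, Mir1904) and Gfra4 (70 bp, Mir6973b). Chd4 encodes the ATPase of the NuRD chromatin remodelling complex and Cdk9 the kinase that releases paused RNA polymerase. Between 100 and 300 bp were Krcc1 (Mir8112), Terf2 (Mir7075), 2210011C24Rik (Mir1199), Arglu1 (Mir7654), Wdfy2 (Mir8098), Epc1 (Mir1893), Rnf144a (Mir6538), Sirt7 (Mir6936) and Ppm1h (Mir8104). Farther, to 1 kb, were Ddhd1 (Mir5131), Dner (Mir5126), Pde12 (Mir7672), Boc (Mir3081), Dio3 (Mir1247), Pdlim7 (Mir6945), Cables1 (Mir1901) and Ercc2 (Mir343). All 23 peaks of this set were single-copy.

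In the second set no protein-coding start was near. Besides the listed genes above, it has Mir34b, a microRNA of the p53 response that lies with Mir34c, with a peak of 1052 bp whose middle was 10 bp from the hairpin start. Mir760, Mir5133, Mir3093, Mir5130, Mir193a and Mir219a-2 had theirs at 73, 132, 195, 394, 507 and 534 bp. The host transcript Mir9-3hg had 2 peaks, 6 and 67 bp from the start assigned to each. Mir6945, at 49 bp, had its closest Pdlim7 start just beyond 1 kb, at 1377 bp. The peaks of Mir6236 (36 bp), Mir6991 (383 bp), Mir5617 (434 bp), Mir7688 (464 bp) and Mir206 (487 bp) did not cover a located hairpin, and those of Mir206 and Mir7688 were the 2 multi-copy peaks within 1 kb.

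In 13 of the 47 cases within 500 bp the peak was assigned to another gene. Mir132 and Mir2861 were next to a peak of their cluster partners, Mir212 and Mir3960. The others were Mir152 (a peak of Copz2, its host), Mir207 (Gm6297, with the start of its host Dnaja1 138 bp from a peak), Mir1900 (Icam5), Mir219a-1 and Mir219c (Ring1), Mir5135 (Plekhg3), Mir6516 (Snhg20), Mir7036b (Add1), Mir7238 (Ankrd10), Mir7653 (Tlcd1) and Mir8092 (Zfp518a). These are hairpins near a peak that a count by gene symbol leaves out.

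Host genes and clusters were then counted over all located hairpins. Of the 209 with an assigned peak, 108 lay inside a protein-coding gene on the same strand (51.7%, 44.9 to 58.4%), and of the 857 without, 496 did (57.9%, 54.5 to 61.1%). The start of that host had a peak within 1 kb for 61 of the 209 (29.2%, 23.4 to 35.7%) and for 179 of the 857 (20.9%, 18.3 to 23.7%). Another hairpin on the same strand within 10 kb was found for 24 of the 209 (11.5%, 7.84 to 16.5%) and for 279 of the 857 (32.6%, 29.5 to 35.8%). In a cluster each peak is assigned to 1 hairpin alone, so the last share depends on how peaks were named. The share for host starts depends on it too, since the peak at the host start can be the assigned peak itself, as for Mir7045 and Mir499.

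Strings of 2 kinds were searched on both strands of the central 200 bp. CTAATTG or CTAATGG, the core of LIM-homeodomain sites, was in 2 of the 358 microRNA peaks (0.559%, 0.153 to 2.01%) and in 0.412% of all peaks. For GATA factors the string AGATAA and its variant AGATAG were searched, and so were the string TGATAA and its variant TGATAG. At least 1 of these was in 19 microRNA peaks (5.31%, 3.42 to 8.14%) and in 4.22% of all peaks. The 2 peaks with a LIM-homeodomain string belonged to Mir6935 and Mir195b. The Mir195b peak, chr2:56628870-56629531, was single-copy, 661 bp wide and 9022 bp upstream, and its central 200 bp are shown on the plus strand because they hold both kinds of string, in capitals (TGATAG on the plus strand, and CTAATGG on the minus strand).
chr2:56629101-56629300: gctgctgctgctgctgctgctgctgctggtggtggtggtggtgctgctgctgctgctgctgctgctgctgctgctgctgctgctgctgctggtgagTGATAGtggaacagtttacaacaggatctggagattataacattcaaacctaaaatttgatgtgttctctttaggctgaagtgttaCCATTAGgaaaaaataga
A run of CTG triplets fills much of this window. A match is a description of letters in the window, and binding at the string was not measured.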

How the data were processed

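The 3 samples were 2 Isl1 ChIP-Seq replicates and 1 input of day 5 CPCs, grouped by sample titles. According to the methods of the study and the submitters' processing notes, the authors aligned reads to mm9 with bowtie2, removed duplicates with Picard 1.136, called peaks with MACS14, dropped blacklisted regions, kept areas common to both replicates with bedtools 2.15 and assigned the closest TSS with HOMER. The deposited list gives positions and signed distances in bp, with no count or score, so depth is unknown. Starts are uncertain by 1 bp.

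Here repeated lines were dropped (83 of 14165). Coordinates were compared with NCBIM37 (mm9) and its GENCODE vM1 annotation. Names and mature sequences came from RefSeq tables of GRCm38.p6, whose coordinates were not used. Hairpins were located by an exact match at 1 genome position (947) or by annotation (119). Words of 31 bases were counted over both strands. Shares have 95% Wilson intervals and medians have order-statistic intervals. No test was run, since 1 combined list has no replicates. Python 3.11.15, numpy 2.4.6, pandas 2.3.3, scipy 1.17.1 and numba 0.67.0 were used, and the counting was checked on simulated data.

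The members and the 9 microRNA lists were chosen with earlier results of these data known, and the lists were written from general knowledge. Genes named are all listed heart and muscle genes in the RefSeq table, genes of other lists with a peak, hairpins with a peak middle within 500 bp, the 10 genes with most peaks, the genes of the 3 widest, narrowest and farthest peaks, and coding genes starting within 1 kb of these peaks. Mir6935, Mir7j, hairpins at 500 bp to 1 kb, closest peaks of hairpins without an assigned peak and their hosts were named after their values were seen.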

Additional observations from a re-analysis of the deposited data

How the results depend on the processing

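Of 47 values recomputed for 10 results, 35 stayed within the interval of the value reported, or within 1.5 times a count, and 12 moved. A minimum width of 500 bp, merging peaks within 1000 bp, leaving out host transcripts and measuring from the peak edge moved none of them. With single-copy peaks alone there were 153 peaks and 130 genes, the median distance was 4874 bp, 32.7% were within 1 kb and 35.3% beyond 10 kb, a gene had 1.18 peaks, 24.2% were within 1 kb of a protein-coding start, and 18.8% of heart and muscle genes had a peak. Fewer peaks enter by construction, and a single-copy peak was found for 10.8% of all microRNA genes. The single-copy peaks of other genes had a median distance of 265 bp. With the starts of all annotated transcripts 17.6% of peaks were within 1 kb of a start. With 75-base words 37.7% were multi-copy. No share over all peaks is given for either of these settings, so the contrast with other peaks cannot be read from them. Genes with a peak within 10 kb numbered 103, and genes with at least 2 peaks numbered 76. Leaving out a replicate was not possible, since both were combined in the list. No paired analysis was possible because no result comes from a test of samples. Without read numbers, peaks under the calling threshold cannot be told from unbound sites.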

Other observations

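Some hairpins far from any peak had a peak nearer to the start of their host gene. Mir218-1 and Mir218-2 lie in Slit2 and Slit3, which encode secreted guidance cues, and had their closest peak 237744 and 116554 bp away. The start of Slit3 was 230 bp from a peak, and that of Slit2 was 1204 bp from one, just outside 1 kb. Mir10b, in the Hox D cluster, had its closest peak at 14181 bp, assigned to Hoxd3, and the start of its host was 40 bp from a peak. Over all located hairpins, 240 of the 604 inside a protein-coding gene on the same strand had a peak within 1 kb of the host start. Of the 240, 61 had an assigned peak, which in some cases was that same peak.

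Mef2c, a transcription factor gene of the developing heart, was the closest protein-coding gene of 5 microRNA peaks, 2 of Mir9-2 and 3 of Mir3961. All 5 were multi-copy, and they lay 269368 to 809687 bp from the Mef2c start. These genes were named after their values were seen.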
